A study of Mus musculus with 23 samples.

Results

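The genes of 10 immune checkpoint ligands were followed through whole tumors of 5 syngeneic mouse models and through cancer-associated fibroblasts (CAFs) sorted from 4 of them. The genes were Cd274, Pdcd1lg2, Cd80, Cd86, Cd276, Vsir, Lgals9, Tnfrsf14, Pvr and Tnfsf18. They were picked by symbol, with the most abundant transcript of each table standing for its gene, and make up 10 of the 24940 gene symbols in the tables. The choice rested on what the genes encode and not on a difference between samples, though it was made with earlier results of these data known.

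Checkpoint ligands are surface or secreted proteins that engage receptors on T cells and natural killer cells and so dampen or strengthen an immune response. PD-L1 (Cd274) and PD-L2 (Pdcd1lg2) bind the inhibitory receptor PD-1, and CD80 and CD86 bind CD28, which activates T cells, and CTLA-4, which restrains them. Interferon-gamma from T cells is a well known inducer of PD-L1, and in tumors these ligands may come from cancer cells, from myeloid cells or from stroma.

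Tumors had been grown in adult female C57BL/6 mice aged 10 to 15 weeks after injection of 500000 cancer cells under the skin of the flank. The lines were B16 (B16-F10, melanoma), EO771 (EO771.LMB, breast), LL2 (LL/2, lung), MC38 (colon) and Pan02 (pancreas), all from the same mouse strain, with 3 tumors per model and 15 in all. CAFs were cells positive for the fibroblast protein FAP, sorted from the CD45-depleted part of EO771, LL2, MC38 and Pan02 tumors, with 2 libraries per model and 8 in all, and no B16 CAF library was among the samples. The sorting is given by the study's methods and the cell type label, whereas the extraction text in the labels of the CAF libraries speaks of tumor fragments, and this was not resolved. Each model rests on 1 cell line, and all lines but B16, a melanoma, were placed outside their organ of origin. There was no untreated or tumor-free group, and model, tissue of origin and cell line cannot be told apart. It is not stated that every library came from a separate mouse, so the p-values measure the spread between these samples.

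Tumor libraries held 10035180 to 21946495 counts over all genes. CAF libraries held about 9267740 to 22842300 reads, as recovered from the steps between their values, with a step taken as 0.5 read. Tumor levels are given as CPM, a gene's counts divided by the size of its library, after TMM scaling, which puts libraries on a common scale. Levels of different genes, and levels in tumors beside CAFs, are given as RPKM, which also divides by transcript length. Among tumors, the leukocyte gene Ptprc (CD45) set LL2 tumor 3 at 124 CPM apart from 37.8 and 51.3 CPM in the other LL2 tumors, and Pan02 tumor 1 at 35.1 CPM apart from 113 and 91.1 CPM. Calls that are lost or gained without 1 library are given with the gene they touch.

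The CAF label was checked against its markers. Fap was at 6.46 to 7.16 RPKM in EO771 CAFs against 0.324 to 0.650 RPKM in EO771 tumors, and it was also higher in CAFs than in tumors of LL2 and MC38. In Pan02 the labelled CAFs held 1.89 and 3.28 RPKM of Fap, within the 1.93 to 4.98 RPKM of whole Pan02 tumors or just under it, and their Col1a1 mean was 30.4% of the tumor mean. The keratin gene Krt8 was present in CAFs of 3 models, with a mean at 72.3% of that of the tumors in EO771, 67.7% in LL2 and 84.7% in Pan02. In EO771 CAFs 6 of the 7 epithelial markers were lower than in the other CAFs (27.9% of all genes) and Krt8 alone was higher, with Krt18 at 0.729 and 1.40 RPKM. In MC38 CAFs all 7 were lower (31.3% of all genes). EO771 tumors likewise had 4 of the 7 lower (27%) and 1 higher (27.2%) than the other tumors, with a Krt18 mean of 2.09 RPKM. The sum over 7 epithelial markers ran from 2.31 to 4.56 RPKM in MC38 CAFs to 886 to 1173 RPKM in Pan02 CAFs. Ptprc was close to 0, at 0.007 to 0.092 RPKM, in LL2, MC38 and Pan02 CAFs, and at 0.902 and 0.947 RPKM in EO771 CAFs. Other myeloid genes were not all at 0, and their summed level is given with Cd86 in CAFs. MC38 CAF 2 held 467 RPKM of Col1a1 against 2771 in MC38 CAF 1. CAF results are therefore also given without the Pan02 libraries or without 1 library where that matters, and the part of other cells in them was not tested.

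The genes lie on 8 chromosomes of the mm10 genome, with Cd274 (chr19:29367438-29388094, plus strand) and Pdcd1lg2 (chr19:29410919-29472927, plus strand) as neighbours 22.8 kb apart. Promoter sequences, taken from RefSeq on GRCm38.p6, were found for 8 of the 10 genes and show the 250 bases before the start. That of Cd276 belongs to another start than the one of the counted transcript. They were searched on both strands for 2 copies of GAAA separated by 2 bases, a form of the interferon-stimulated response element, and for TTC and GAA separated by 3 bases, a form of the gamma-activated site. The first stood in 2.98% of 32851 promoters and in those of Tnfrsf14 and Lgals9, and the second in 7.02% of all promoters and in none of the 8. The 4 promoters are shown because they hold the first motif (Tnfrsf14 and Lgals9) or belong to the neighbouring genes of the PD-1 ligands (Cd274 and Pdcd1lg2), and capitals mark matches to the first motif, on the minus strand of the gene in both cases. They lie at chr4:154928078-154928327 (minus strand) for Tnfrsf14, chr11:78984925-78985174 (minus strand) for Lgals9, chr19:29367188-29367437 (plus strand) for Cd274 and chr19:29410669-29410918 (plus strand) for Pdcd1lg2.
Tnfrsf14: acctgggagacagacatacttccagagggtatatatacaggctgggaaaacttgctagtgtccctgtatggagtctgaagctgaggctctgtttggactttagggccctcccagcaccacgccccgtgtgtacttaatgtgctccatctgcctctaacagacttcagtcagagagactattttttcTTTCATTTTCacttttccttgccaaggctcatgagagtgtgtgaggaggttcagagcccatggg
Lgals9: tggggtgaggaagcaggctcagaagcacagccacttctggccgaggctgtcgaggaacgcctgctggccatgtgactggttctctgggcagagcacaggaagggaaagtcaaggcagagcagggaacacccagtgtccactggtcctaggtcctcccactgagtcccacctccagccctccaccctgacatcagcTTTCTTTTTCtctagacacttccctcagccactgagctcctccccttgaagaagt
Cd274: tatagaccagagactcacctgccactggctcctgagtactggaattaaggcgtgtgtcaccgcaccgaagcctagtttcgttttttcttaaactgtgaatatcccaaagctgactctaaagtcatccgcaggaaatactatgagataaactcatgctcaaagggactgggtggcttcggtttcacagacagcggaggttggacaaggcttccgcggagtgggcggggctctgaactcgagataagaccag
Pdcd1lg2: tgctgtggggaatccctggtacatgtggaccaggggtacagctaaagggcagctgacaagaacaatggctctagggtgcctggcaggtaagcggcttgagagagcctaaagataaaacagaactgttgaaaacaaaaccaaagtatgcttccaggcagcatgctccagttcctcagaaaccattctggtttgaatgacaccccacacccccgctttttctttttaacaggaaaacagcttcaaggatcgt
The match began 64 bases before the start in Tnfrsf14 and 55 bases before it in Lgals9. A match is a description of the letters and not evidence of a bound factor, and its absence from Cd274 and Pdcd1lg2 holds for this window only.

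The first question was whether the ligands differ among tumor models. Tnfsf18 passed the filter on low counts through the Pan02 tumors alone and so had to differ, and it is left out of the counts of genes. The other 9 passed the test over the 5 models (edgeR quasi-likelihood, Benjamini-Hochberg adjusted p up to 0.0445 for Tnfrsf14), but so did 91.1% of the 15732 genes tested. The share of members is thus near that of all genes, and the results lie in which model was high and by how much. Over the 10 pairs of models, 43 of 90 contrasts of these 9 genes passed, beside 54.6% of contrasts over all genes. In bulk RNA, fewer cells of a type and less RNA per cell cannot be told apart.

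**Figure D1:**
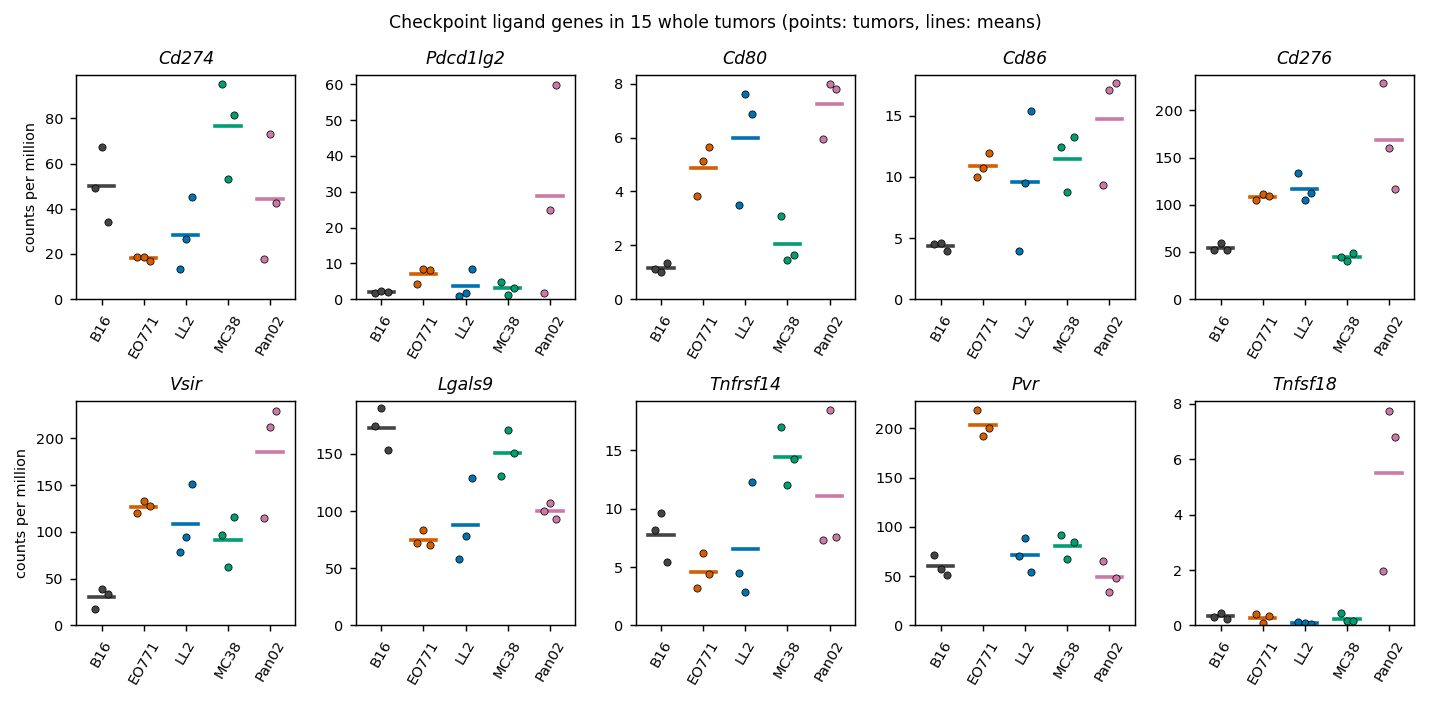
Level of each ligand gene in every tumor, in CPM on the vertical axis (scales differ by gene), with models on the horizontal axis, points for the 3 tumors of a model and lines for their means. Pvr stood highest in the 3 EO771 tumors (192 to 218 CPM), Vsir and Cd80 lowest in the 3 B16 tumors, and Pdcd1lg2 spread from 1.76 to 59.8 CPM within Pan02.

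Per length, Lgals9 was the most abundant ligand in tumors, with a median of 67.5 RPKM over the 15 tumors. Cd276 followed at 33.1 RPKM, Pvr at 25.0, Vsir at 22.2, Cd274 at 11.1 and Tnfrsf14 at 8.11 RPKM. The ligands of CD28 and CTLA-4 were scarcer, with Cd86 at 3.91 and Cd80 at 1.41 RPKM, and Pdcd1lg2 (1.01 RPKM) and Tnfsf18 (0.145 RPKM) came last.

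Cd274 encodes PD-L1, the main ligand of PD-1. It stood at 95.4, 53.2 and 81.4 CPM in the MC38 tumors and at 49.4, 67.2 and 34.2 CPM in the B16 tumors. Pan02 tumors held 17.7, 73.3 and 42.6 CPM, LL2 tumors 13.4, 26.6 and 45.3 CPM, and EO771 tumors 18.9, 18.5 and 17.0 CPM. EO771 was thus low with little spread, and the LL2 and Pan02 tumors spread from as low as EO771 up into the range of B16 and, for Pan02 tumor 2, of MC38. Cd274 was 2.34-fold higher in MC38 than in the mean of the other 4 models (log2 1.23 ± 0.34 SE, edgeR adjusted p = 0.00828) and 2.59-fold lower in EO771 (log2 -1.37 ± 0.41 SE, adjusted p = 0.0124). Neighbours in the order MC38, B16, Pan02, LL2 and EO771 did not pass the test, while MC38 exceeded EO771 by 2.08 on the log2 scale (adjusted p = 0.00307). Without MC38 tumor 1 the adjusted p for MC38 was 0.0565, and without EO771 tumor 3 that for EO771 was 0.0514. In the annotation, 14.1% of Cd274 exon bases are shared with the gene AC119228.1, whose reads could not be separated.

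Pdcd1lg2 encodes PD-L2, the second ligand of PD-1, best known from macrophages and dendritic cells. The Pan02 tumors held 1.76, 25.0 and 59.8 CPM. Levels were 4.24, 8.32 and 8.23 CPM in EO771, 0.985, 1.77 and 8.51 CPM in LL2, 4.79, 1.07 and 3.15 CPM in MC38 and 1.82, 2.18 and 1.90 CPM in B16. Pan02 tumors 2 and 3 stood above all others, whereas Pan02 tumor 1, the one low in Ptprc, lay just under the B16 tumors. Pdcd1lg2 was 8.15-fold higher in Pan02 than in the other models (log2 3.03 ± 0.63 SE, adjusted p = 0.000935), a value that dropped to 1.91 on the log2 scale without Pan02 tumor 3 (adjusted p = 0.0323). Pan02 and EO771, the next in order, did not pass the test of their difference (log2 2.06, adjusted p = 0.0714), nor did any other neighbours. In B16 the value of -1.79 missed the threshold (adjusted p = 0.0841) but passed without Pan02 tumor 1 (adjusted p = 0.0144) and under DESeq2 (adjusted p = 0.037).

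Cd80, the costimulatory ligand with the higher affinity for CTLA-4, was lowest in B16 at 1.13, 1.03 and 1.35 CPM, under every tumor of the other models. It stood at 3.08, 1.44 and 1.64 CPM in MC38, 3.81, 5.14 and 5.66 CPM in EO771, 3.50, 7.61 and 6.89 CPM in LL2 and 5.96, 7.99 and 7.80 CPM in Pan02. B16 and MC38 thus formed a low range, and MC38 did not overlap with EO771. Cd80 was 3.80-fold lower in B16 (log2 -1.93 ± 0.31 SE, adjusted p = 0.000118) and 1.93-fold lower in MC38 (adjusted p = 0.0127), and it was higher in Pan02 by 1.31 and in LL2 by 0.98 on the log2 scale (adjusted p = 0.000375 and 0.0061). The MC38 call was lost without MC38 tumor 2 or 3 (adjusted p = 0.0796 and 0.058), and the LL2 call without LL2 tumor 2 (adjusted p = 0.0602). In EO771 the value of 0.59 did not pass (adjusted p = 0.0654), but did without LL2 tumor 2 or MC38 tumor 1 (adjusted p = 0.0499 and 0.0209).

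Cd86, the ligand of CD28 and CTLA-4 typical of antigen-presenting cells, was also low in B16, at 4.52, 4.63 and 3.94 CPM. It stood at 9.96, 10.7 and 11.98 CPM in EO771, 12.4, 8.76 and 13.3 CPM in MC38 and 9.33, 17.1 and 17.7 CPM in Pan02, and at 3.98, 9.47 and 15.4 CPM in LL2. LL2 tumor 1 lay within the B16 range and LL2 tumor 3 within that of Pan02. Cd86 was 2.64-fold lower in B16 (log2 -1.40 ± 0.33 SE, adjusted p = 0.00222) and 1.72-fold higher in Pan02 (adjusted p = 0.0263). The Pan02 call did not hold without Pan02 tumor 2 or 3 (adjusted p = 0.113 and 0.123) or with scaling by total counts (adjusted p = 0.0512).

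Cd276 encodes B7-H3, a relative of the CD80 family that is common on cancer cells and stroma and whose receptor is not settled. It was the most evenly spread of these genes within models, at 51.8, 59.3 and 52.4 CPM in B16, 44.97, 40.1 and 48.9 CPM in MC38 and 105, 111 and 109 CPM in EO771. LL2 tumors held 134, 105 and 113 CPM and Pan02 tumors 228, 160 and 117 CPM. The MC38 tumors lay under all others and the B16 tumors just above them, and here Pan02 tumor 1 was the highest of its model. Cd276 was 2.26-fold higher in Pan02 (log2 1.18 ± 0.14 SE, adjusted p = 7.09e-06), 2.33-fold lower in MC38 (adjusted p = 3.45e-05) and 1.81-fold lower in B16 (adjusted p = 0.000322). Smaller differences of 0.52 in LL2 and 0.38 in EO771 on the log2 scale also passed (adjusted p = 0.00966 and 0.0382). The first was lost without LL2 tumor 1 (adjusted p = 0.0712), and the second without any one of 9 tumors, namely B16 tumors 1 and 3, LL2 tumors 2 and 3, all 3 EO771 tumors and MC38 tumors 1 and 2 (adjusted p from 0.0515 to 0.118). Of the Cd276 exon bases, 11.4% are shared with the predicted gene Gm10657.

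Vsir encodes VISTA, an inhibitory ligand and receptor found mainly on myeloid cells. B16 tumors held 17.8, 38.7 and 33.7 CPM and all other tumors more, with 96.8, 62.0 and 115 CPM in MC38 and 78.8, 94.6 and 152 CPM in LL2. EO771 tumors held 120, 133 and 128 CPM and Pan02 tumors 115, 212 and 229 CPM. Apart from the low B16 tumors the models overlapped with their neighbours in order. Vsir was 4.08-fold lower in B16 (log2 -2.03 ± 0.30 SE, adjusted p = 5.56e-05) and 2.36-fold higher in Pan02 (log2 1.24 ± 0.24 SE, adjusted p = 0.000545). From B16 to MC38, the next in order, the step was 1.59 on the log2 scale (adjusted p = 0.0012), and no other step between neighbours passed. In EO771 the value of 0.56 did not pass (adjusted p = 0.0758), but did without LL2 tumor 3 or Pan02 tumor 3 (adjusted p = 0.0353 and 0.0478).

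Lgals9 encodes galectin-9, a secreted lectin that binds TIM-3. It ran against the other ligands in that B16 was highest, at 175, 190 and 153 CPM, followed by MC38 at 131, 171 and 151 CPM. Pan02 tumors held 100.03, 107 and 93.4 CPM, LL2 tumors 57.8, 78.2 and 129 CPM and EO771 tumors 72.1, 83.3 and 70.2 CPM. B16 and MC38 overlapped with each other and stood above the Pan02 tumors. Lgals9 was 1.72-fold higher in B16 (log2 0.79 ± 0.16 SE, adjusted p = 0.000871), 1.46-fold higher in MC38 (adjusted p = 0.0142) and 1.64-fold lower in EO771 (adjusted p = 0.00482). The MC38 call was lost without MC38 tumor 2 or 3 (adjusted p = 0.0902 and 0.05001). The LL2 value of -0.42 (adjusted p = 0.071) passed under DESeq2 (adjusted p = 0.0291) and became -0.79 without LL2 tumor 3 (adjusted p = 0.000789).

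Tnfrsf14 encodes HVEM, a TNF receptor family member that acts as the ligand of BTLA and CD160. MC38 tumors held 17.0, 12.04 and 14.3 CPM and EO771 tumors 3.20, 6.24 and 4.40 CPM. B16 tumors stood at 8.15, 9.67 and 5.41 CPM, LL2 tumors at 4.45, 2.89 and 12.2 CPM and Pan02 tumors at 7.30, 18.5 and 7.56 CPM. LL2 tumor 3 lay within the MC38 range and Pan02 tumor 2 above it. Tnfrsf14 was 2.02-fold higher in MC38 (log2 1.02 ± 0.36 SE, adjusted p = 0.0297), which did not hold without MC38 tumor 1 or 3 (adjusted p = 0.123 and 0.0765), and the EO771 value of -1.04 missed the threshold (adjusted p = 0.0522) but passed under DESeq2 (adjusted p = 0.0195) and without any one LL2 tumor, Pan02 tumor 1 or Pan02 tumor 3 (adjusted p from 0.025 to 0.0487). Without LL2 tumor 3, the one rich in Ptprc, the LL2 value went from -0.41 to -1.23 (adjusted p = 0.0281) and the Pan02 value from 0.54 to 0.74 (adjusted p = 0.0405). No neighbours in order passed.

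Pvr encodes the poliovirus receptor CD155, a nectin-like adhesion protein that binds TIGIT, CD96 and the activating receptor CD226. EO771 tumors held 218, 192 and 200 CPM, above every other tumor. MC38 tumors held 91.6, 67.1 and 84.6 CPM, LL2 tumors 70.4, 89.0 and 54.2 CPM, B16 tumors 71.6, 57.0 and 51.1 CPM and Pan02 tumors 65.1, 33.6 and 47.7 CPM, a run of overlapping ranges. Pvr was 3.18-fold higher in EO771 (log2 1.67 ± 0.16 SE, adjusted p = 1.81e-06), 1.87-fold lower in Pan02 (adjusted p = 0.00106) and 1.46-fold lower in B16 (adjusted p = 0.0213), the last lost without B16 tumor 2 or 3 (adjusted p = 0.0789 and 0.113). The step from EO771 to MC38 was 1.33 on the log2 scale (adjusted p = 0.00034), and no other neighbours passed.

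Tnfsf18 encodes GITR ligand, which stimulates T cells through GITR. It was nearly absent outside Pan02, with 1 to 9 counts per tumor (0.0626 to 0.466 CPM), and stood at 1.95, 7.72 and 6.81 CPM in the Pan02 tumors (40 to 114.5 counts, the deposited counts being in steps of 0.5). The 4.53 on the log2 scale in Pan02 (SE 0.38) is a description only. The LL2 tumors held 1 or 2 counts each, too few for a ratio to be given.

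By model, of the 9 genes without Tnfsf18, 6 passed in B16 (63.5% of all genes), 5 of them lower (31.6%), which were Cd80, Cd86, Cd276, Vsir and Pvr, and 1 higher (31.9%), Lgals9. In Pan02, 6 of 9 passed (60.6%), 5 of them higher (32.5%) and 1 lower (28.1%), Pvr. MC38 had 5 of 9 (51.4%), 3 higher (27%) and 2 lower (24.4%). EO771 had 4 of 9 (54.2%), 2 higher (27.2%) and 2 lower (27%), and LL2 had 2 of 9 (42.2%), both higher (23.3%) and 0 lower (18.9%). In LL2, 3 of the 9 had an unadjusted p under 0.05. The median log2 difference of the 9 genes was -0.86 in B16 and 0.78 in Pan02, and lay between -0.23 and 0.38 in the other models. Counting genes whose tumors all lay beyond the other 12, B16 had 2 members below (12.2% of all genes), EO771 1 above (9.75%) and MC38 1 below (6.07%). None of the 9 was above in B16 (14.5%), MC38 (7.68%), LL2 (5.14%) or Pan02 (8.92%), or below in EO771 (7.07%), LL2 (2.35%) or Pan02 (9.52%). Several marker lists moved with these groups, beside 31.6% of all genes lower in B16 and 32.5% higher in Pan02. Of myeloid and dendritic markers, 11 of 15 were lower in B16 (median log2 -1.29) and 9 of 15 higher in Pan02 (median 0.96). Fibroblast markers had 10 of 10 lower in B16 and 10 of 10 higher in Pan02, and epithelial markers 5 of 7 lower in B16 and 7 of 7 higher in Pan02. Their part in the ligand levels was not tested.

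**Figure D2:**
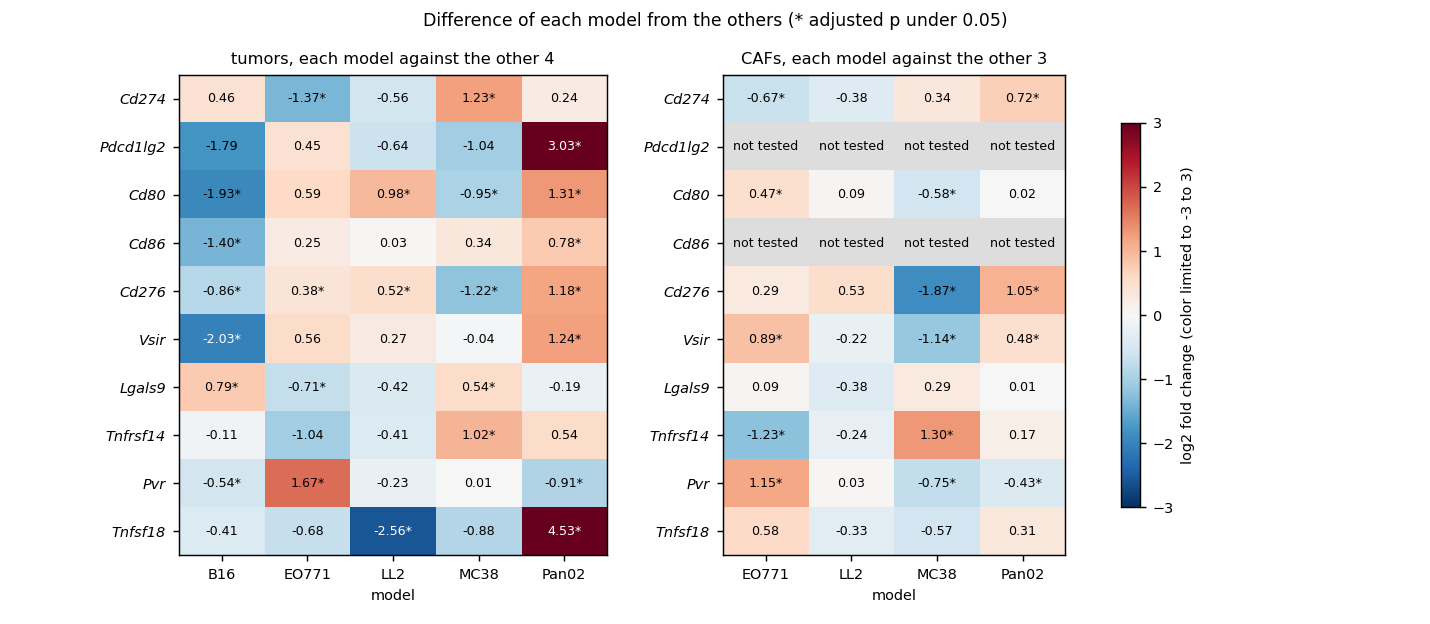
Log2 difference of each model from the mean of the other models, for tumors on the left (against 4 models) and CAFs on the right (against 3 models), with genes in rows, models in columns, color and number for the difference and a star for an adjusted p under 0.05. The B16 column is mostly negative with Vsir at -2.03, and Pvr is highest in EO771 in both panels (1.67 and 1.152).

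Setting each ligand against Ptprc in the same tumor changed the order of models for some genes. On the log2 scale, Cd274 stood 0.51 ± 0.39 (SD, n = 3) above Ptprc in B16 and below it in every other model, from -0.43 ± 0.31 in MC38 to -1.90 ± 0.25 in EO771. The highest model thus passed from MC38 by CPM to B16 relative to Ptprc for Cd274, and did so for Tnfrsf14 too (-2.02 ± 0.40 in B16, -2.73 ± 0.26 in MC38). Cd86 stayed within a narrow band, from -3.04 ± 0.11 in MC38 to -2.25 ± 0.43 in Pan02. For 8 of 10 members the highest model was the same on both scales. With the mean of 15 myeloid and dendritic markers in place of Ptprc this held for 4 of 10, since EO771 then led for Cd80, Cd86, Cd276 and Vsir. For each of these genes the EO771 range overlapped that of another model. Cd276 was 1.82 ± 0.04 in EO771 and 1.74 ± 0.23 in B16, and Cd86 -1.38 ± 0.12 in EO771 and -1.63 ± 0.33 in B16. Cd80 was -2.41 ± 0.24 in EO771 and -2.59 ± 0.51 in Pan02, and Vsir 2.05 ± 0.07 and 1.86 ± 0.28. These ratios are descriptions and were not tested.

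Within models, tumors richer in Ptprc were also richer in several ligands. Deviations from the model mean were correlated over 15 tumors of 5 models, which share library scaling and rest largely on LL2 and Pan02, so the values describe these tumors and carry no p. The correlation with Ptprc was 0.89 for Cd274, 0.87 for Vsir, 0.86 for Cd86, 0.85 for Pdcd1lg2 and 0.73 for Tnfrsf14, and it was -0.43 for Cd276 and -0.69 for Pvr. Without the LL2 and Pan02 tumors (n = 9) it was 0.57 for Cd274, 0.86 for Vsir, 0.62 for Cd86, 0.56 for Pdcd1lg2 and 0.54 for Tnfrsf14, but it turned to 0.92 for Cd276 and was -0.12 for Pvr. For Lgals9, Tnfsf18 and Cd80 it was 0.61, 0.60 and 0.50 over the 15 tumors and 0.13, 0.14 and 0.16 over these 9. Tnfsf18 was nearly absent in these 9 tumors, so its 0.14 rests on a few counts per tumor.

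**Figure D3:**
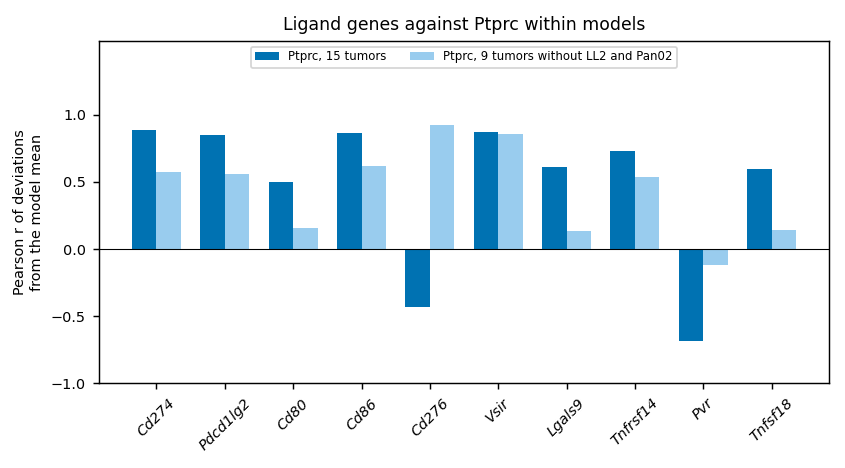
Pearson correlation, on the vertical axis, of each ligand gene with Ptprc after the model mean was taken from each log2 value, over all 15 tumors (dark bars) and over 9 tumors without LL2 and Pan02 (light bars). Vsir stands at 0.87 and 0.86 in these sets, whereas Cd276 passes from -0.43 to 0.92.

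The genes whose pattern over the 15 tumors lay closest were found by the root mean square difference of centred log2(CPM + 1) values among 14298 genes with a mean of at least 1 CPM. For Cd274 these were Serpina3f (0.25) and Trim12a (0.32), for Tnfrsf14 Cd96 (0.28) and Itgal (0.28), and for Lgals9 Adar (0.18). Vsir lay near P2ry6 (0.19) and Fcgr3 (0.28), Cd86 near Lair1 (0.22) and Ebi3 (0.26), and Pdcd1lg2 near Clec7a (0.56) and Ccl8 (0.61). Cd276 lay near Vcl (0.22) and Smad3 (0.23), Cd80 near Pmaip1 (0.27) and Gm16907 (0.30), Pvr near Klhl21 (0.27) and Map2k3 (0.28), and Tnfsf18 near Krt13 (0.22) and Cldn10 (0.26). Clec7a, the closest to Pdcd1lg2, was further away than the closest gene of any other member.

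The second question was which ligands CAFs carried and whether CAF models differed. Of the 10 genes, 8 reached 1 RPKM in at least 2 libraries and were tested, with limma on log2(RPKM + 1) values. Cd80 and Tnfsf18 passed this filter only with the help of the EO771 libraries and are left out of the counts. Of the other 6, 5 differed among the 4 CAF models (adjusted p from 0.000252 for Tnfrsf14 to 0.0202 for Cd274), beside 80.4% of 13598 genes tested, and Lgals9 did not pass (adjusted p = 0.208). Over the 6 pairs of models, 20 of 36 contrasts of these 6 genes passed, beside 48.1% over all genes. Fold changes here are on the log2(RPKM + 1) scale and understate those of genes near 1 RPKM.

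**Figure D4:**
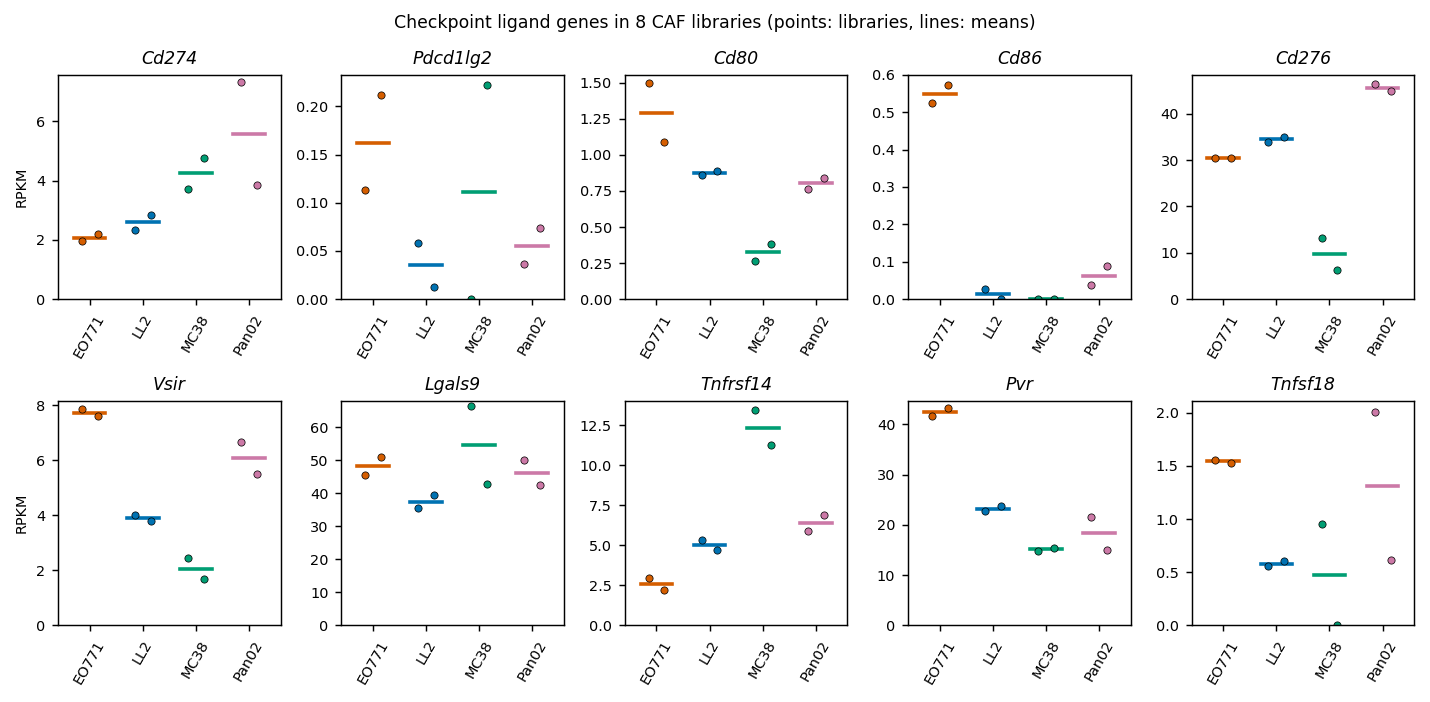
Level of each ligand gene in every CAF library, in RPKM on the vertical axis (scales differ by gene), with models on the horizontal axis, points for the 2 libraries of a model and lines for their means. Cd86 and Pdcd1lg2 stay at or below 0.572 RPKM, and Cd276 and Tnfrsf14 show MC38 at opposite ends, lowest for Cd276 and highest for Tnfrsf14.

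The PD-1 ligands parted in CAFs. Cd274 was present in every library, at 7.30 and 3.84 RPKM in Pan02, 3.72 and 4.76 RPKM in MC38, 2.34 and 2.84 RPKM in LL2 and 1.95 and 2.21 RPKM in EO771. EO771 libraries lay under all others. Cd274 was higher in Pan02 (log2 0.72 ± 0.21 SE, limma adjusted p = 0.0224) and lower in EO771 (log2 -0.67 ± 0.21 SE, adjusted p = 0.0291). The Pan02 call rested on Pan02 CAF 1, without which the value was 0.33 (adjusted p = 0.192), it was 1.11 without Pan02 CAF 2, and the call was also lost without EO771 CAF 1 or LL2 CAF 1 (adjusted p = 0.0508 and 0.0561). The EO771 call was lost without either EO771 library or either LL2 library (adjusted p from 0.0521 to 0.169). Without the filter on low values neither call passed (adjusted p = 0.0558 in Pan02 and 0.069 in EO771). MC38 passed as higher without Pan02 CAF 1 (log2 0.47, adjusted p = 0.0276), and LL2 as lower without Pan02 CAF 2 (log2 -0.51, adjusted p = 0.0378). Without the Pan02 libraries, EO771 remained lower (log2 -0.49, adjusted p = 0.029) and MC38 was higher (log2 0.65, adjusted p = 0.00864). Pdcd1lg2 was at 0.222 RPKM or less in every CAF library, which is 29 steps of 0.5 read or fewer. It was at 0 in MC38 CAF 1, where 3 steps would give 0.0333 RPKM, and it was not tested.

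The CD28 and CTLA-4 ligands were scarce in CAFs. Cd86 was at 0 in both MC38 libraries, where 3 steps of 0.5 read would give 0.0449 and 0.064 RPKM. It was at 0.088 RPKM or less in LL2 and Pan02. EO771 CAFs held 0.525 and 0.572 RPKM of Cd86, 12.8% of the mean of EO771 tumors. In the same CAFs, Ptprc was at 6.85%, Tyrobp at 12.6% and Csf1r at 12.6% of the tumor mean, and the sum over 15 myeloid and dendritic markers ran from 92.5 to 114 RPKM, against 17.7 to 63.9 RPKM in the other CAFs. Whether Cd86 came from such cells was not tested. Cd80 stood at 1.496 and 1.09 RPKM in EO771, 0.861 and 0.892 in LL2, 0.766 and 0.842 in Pan02 and 0.268 and 0.382 RPKM in MC38. It entered the test through EO771 alone and so had to be higher there, which is a description only, and the size of its differences depended on the scale. For MC38 the log2 difference was -0.58 with a pseudocount of 1 RPKM, -1.34 with 0.1 RPKM and -1.64 by edgeR on recovered counts, and for EO771 it was 0.47, 0.94 and 1.09. MC38 lay below Pan02, the next in order (log2 0.45, adjusted p = 0.0298).

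Cd276 was among the most abundant ligands in CAFs, at 46.4 and 44.8 RPKM in Pan02, 34.0 and 35.0 RPKM in LL2 and 30.4 and 30.5 RPKM in EO771. MC38 CAFs held 13.2 and 6.35 RPKM, and these 2 libraries differed by more than those of any other model. Cd276 was 3.66-fold lower in MC38 (log2 -1.87 ± 0.22 SE, adjusted p = 0.000327) and 2.07-fold higher in Pan02 (adjusted p = 0.00568). The Pan02, LL2 and EO771 libraries did not overlap, but the steps from Pan02 to LL2 and from LL2 to EO771 missed the threshold (adjusted p = 0.293 and 0.638), and EO771 exceeded MC38 by 1.62 (adjusted p = 0.00175). The order matched that of the sums of epithelial markers only at its ends, with Pan02 highest and MC38 lowest in both. Without the Pan02 libraries MC38 remained lower (log2 -1.71, adjusted p = 0.00182), and LL2 was then higher (log2 0.99, adjusted p = 0.0237). LL2 also passed as higher without MC38 CAF 1 or MC38 CAF 2 (log2 0.68 and 0.37, adjusted p = 0.000721 and 0.0101), and EO771 without MC38 CAF 1 (log2 0.45, adjusted p = 0.00245).

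Vsir was at 7.85 and 7.59 RPKM in EO771, 6.68 and 5.50 in Pan02, 4 and 3.80 in LL2 and 2.45 and 1.68 RPKM in MC38, with no overlap between neighbours. It was higher in EO771 (log2 0.89 ± 0.14 SE, adjusted p = 0.00157) and Pan02 (log2 0.48, adjusted p = 0.0199) and lower in MC38 (log2 -1.14, adjusted p = 0.000346). The Pan02 call was lost without Pan02 CAF 1 (adjusted p = 0.151) or EO771 CAF 2 (adjusted p = 0.0528). Steps from Pan02 to LL2 and from LL2 to MC38 passed (adjusted p = 0.0425 and 0.0117), and the step from EO771 to Pan02 did not (adjusted p = 0.159).

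Lgals9 was the most abundant ligand in CAFs, as it was in tumors, and the most even. It stood at 45.6 and 50.9 RPKM in EO771, 49.9 and 42.6 in Pan02, 66.4 and 42.9 in MC38 and 35.6 and 39.3 RPKM in LL2, where both libraries lay under the others. No model passed the test against the others, although the MC38 value of 0.29 became 0.59 (adjusted p = 0.00765) and the LL2 value passed from -0.38 to -0.49 (adjusted p = 0.00932) when MC38 CAF 2 was left out. MC38 is then 1 library, taken to vary like the other models. Tnfrsf14, by contrast, separated most models, at 13.5 and 11.2 RPKM in MC38, 5.91 and 6.90 in Pan02, 5.30 and 4.69 in LL2 and 2.95 and 2.23 RPKM in EO771. It was 2.46-fold higher in MC38 (log2 1.30 ± 0.14 SE, adjusted p = 0.0002) and 2.34-fold lower in EO771 (log2 -1.23 ± 0.14 SE, adjusted p = 0.000387), and only Pan02 and LL2 were neighbours that did not pass (adjusted p = 0.194). Both calls held when any library or both Pan02 libraries were left out.

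Pvr stood at 41.6 and 43.3 RPKM in EO771 CAFs, above every other library, and at 22.7 and 23.7 RPKM in LL2, 21.6 and 15.1 in Pan02 and 14.9 and 15.5 RPKM in MC38. It was 2.22-fold higher in EO771 (log2 1.152 ± 0.14 SE, adjusted p = 0.000536) and lower in MC38 (log2 -0.75, adjusted p = 0.00257). The smaller difference of -0.43 in Pan02 (adjusted p = 0.0315) was lost without Pan02 CAF 2, either EO771 library or either LL2 library (adjusted p from 0.0608 to 0.28), without the filter on low values (adjusted p = 0.0512) and with edgeR on recovered counts (adjusted p = 0.0561), and it was -0.18 without Pan02 CAF 2 and -0.68 without Pan02 CAF 1. EO771 CAFs also held Krt8 at 72.3% of the tumor level. Of the 7 epithelial markers, 6 were lower in them than in the other CAFs, but 4 were also lower in EO771 tumors than in the other tumors. The part of epithelial cells in the Pvr of EO771 CAFs was not tested. Tnfsf18 was at 1.56 and 1.53 RPKM in EO771, 2.01 and 0.611 in Pan02, 0.558 and 0.606 in LL2 and 0.956 and 0 RPKM in MC38. Every library but the last held 45 to 134 steps of 0.5 read. No model passed for Tnfsf18. Values past the threshold arose without MC38 CAF 1 (log2 0.75 in EO771 and -1.05 in MC38, adjusted p = 0.0236 and 0.0172), where MC38 is 1 library at 0 taken to vary like the others, and without the Pan02 libraries (log2 0.77 in EO771, adjusted p = 0.0479), where the gene passed the filter through EO771 alone, so they are a description only.

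By model, of the 6 genes without Cd80 and Tnfsf18, 4 passed in EO771 (52.5% of all genes), 4 in MC38 (59.9%), 4 in Pan02 (53.6%) and 0 in LL2 (33%). In LL2, 1 gene, Cd276, had an unadjusted p under 0.05 by limma, and edgeR on recovered counts also called 0. Of the 4 in MC38, 3 were lower (31.3% of all genes), which were Cd276, Vsir and Pvr, and 1 was higher (28.6%), Tnfrsf14. EO771 had 2 higher (24.5%) and 2 lower (27.9%), and Pan02 had 3 higher (27.1%) and 1 lower (26.5%). Counting genes whose 2 libraries lay beyond the other 6, EO771 had 2 of the 6 above (17.3%) and 2 below (17.4%), MC38 1 above (20.3%) and 2 below (19.8%), LL2 1 below (7.79%) and Pan02 1 above (20%), and none was above in LL2 (9.38%) or below in Pan02 (15.4%).

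The third question was how tumors and CAFs of the same model compare. The 2 tables were normalized separately and no test was made between them, so the values are set side by side. The CAF mean was below the tumor mean in 36 of 40 pairs of gene and model. The share over all genes is not given, so this count is a description only. Tumor RPKM divide by the total over gene symbols and CAF RPKM by the authors' own totals. By percentile among the genes of a library, some pairs ran the other way. For Cd276 it was 88.8 in tumors and 89.4 in CAFs of EO771, 89.3 and 91.5 in LL2, 92.9 and 94.0 in Pan02, and 77.3 and 74.6 in MC38. The size of the difference varied by gene and model. Cd276 was at 45.6 RPKM in CAFs and 49.6 RPKM in tumors of Pan02, 34.5 and 36.6 RPKM in LL2, 30.5 and 34.0 RPKM in EO771 and 9.78 and 15.2 RPKM in MC38. Ranges overlapped in Pan02 and LL2. CAF libraries also held Krt8, at 84.7% of the tumor mean in Pan02, 67.7% in LL2, 72.3% in EO771 and 2.07% in MC38. Fap in Pan02 CAFs was at 67.4% of the tumor mean. The part of other cells in these Cd276 levels was not tested. Pvr was at 18.3 and 15.9 RPKM in Pan02 and 23.2 and 24.6 RPKM in LL2, with overlap, whereas tumors exceeded CAFs 1.66-fold in EO771 and 2.01-fold in MC38 without overlap. Lgals9 was at 48.2 and 50.6 RPKM in EO771, and tumors exceeded CAFs 1.57-fold in LL2, with overlap in both, and 1.37-fold in Pan02 and 2.01-fold in MC38 without it. Tumors exceeded CAFs 1.43-fold to 2.01-fold for Tnfrsf14, with overlap in LL2 alone, and 1.40-fold to 3.16-fold for Cd80, with overlap in EO771 alone. Cd80 was read from different transcripts, NM_001359898 of 2680 bases in tumors and NM_009855 of 1693 bases in CAFs. Its RPKM in tumors and CAFs therefore divide by unlike lengths.

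Vsir and Cd274 were lower in CAFs but measurable, with CAF means at 10.1% to 29.5% of the tumor mean for Vsir. For Cd274 tumors exceeded CAFs 5.403-fold in MC38, 2.99-fold in LL2, 2.40-fold in EO771 and 2.07-fold in Pan02, and the ranges overlapped in Pan02 alone. Pdcd1lg2 was at 0.69% to 11.6% of the tumor mean. For Cd86 the CAF share was 12.8% in EO771 and at most 1.146% in the other models. Tnfsf18 went the other way, at 1.54 RPKM in CAFs and 0.138 RPKM in tumors of EO771 and at 0.582 and 0.0488 RPKM in LL2, without overlap in either model, whereas in Pan02 tumors (0.885 to 3.51 RPKM) and CAFs (0.611 and 2.01 RPKM) overlapped.

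**Figure D5:**
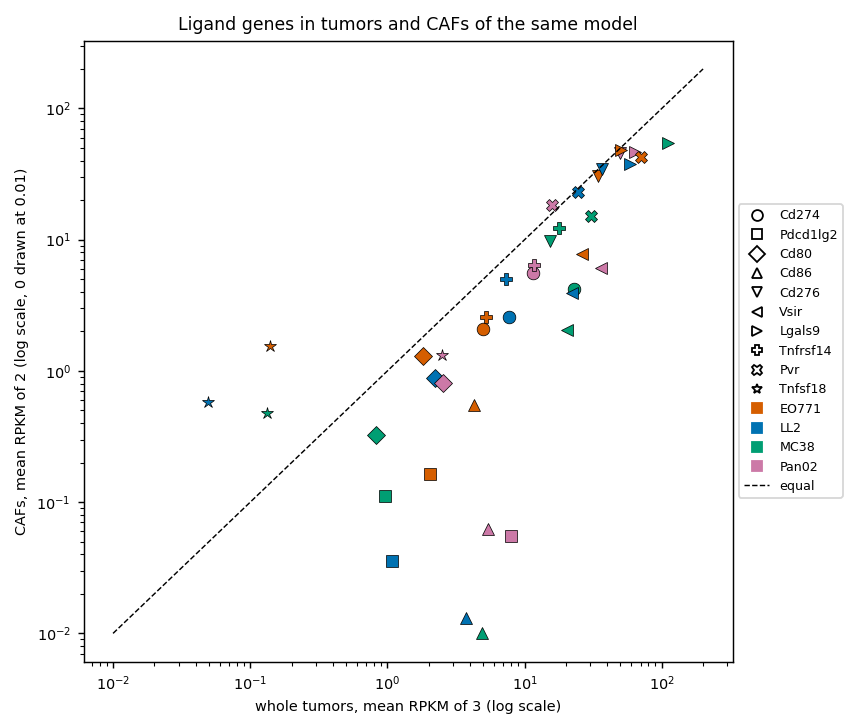
Mean RPKM in CAFs (n = 2, vertical axis) against mean RPKM in whole tumors (n = 3, horizontal axis) of the same model, both on log scales, with symbols for genes, colors for models and a dashed line where both are equal (a mean of 0 is drawn at the lower edge). Cd276 of EO771, LL2 and Pan02, Pvr of LL2 and Pan02 and Lgals9 of EO771 lie nearest the line, Cd276, Pvr and Lgals9 of MC38 below it (tumors 1.56-fold to 2.01-fold higher), Cd86 and Pdcd1lg2 far below it, and Tnfsf18 of EO771, LL2 and MC38 above it.

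The order of models was also set side by side. Among the 4 models in both tables, the highest was the same in tumors and CAFs for 4 of 10 genes (Pan02 for Cd276, MC38 for Lgals9 and Tnfrsf14, EO771 for Pvr) and the lowest for 5 of 10 (EO771 for Cd274 and Tnfrsf14, MC38 for Cd80, Cd276 and Vsir). The share over all genes is not given, so these counts are a description only. The 10 genes include Pdcd1lg2 and Cd86, which rest on few reads in most CAFs, and Tnfsf18, nearly absent in tumors outside Pan02.

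The receptors of these ligands were read from a list of 12 genes. In Pan02 tumors 5 of 12 were higher, among them Btla (log2 1.97, adjusted p = 0.00152), Tigit, the receptor of Pvr (log2 1.57, adjusted p = 0.00171), and Ctla4 (log2 1.66, adjusted p = 0.0148), beside 32.5% of all genes. In MC38 tumors 2 of 12 were higher (27% of all genes), Cd96 (log2 1.57, adjusted p = 0.0272) and Havcr2, which encodes the galectin-9 receptor TIM-3 (19.4 to 24.6 CPM, log2 1.01, adjusted p = 0.00166). In B16 tumors 3 of 12 were lower (31.6% of all genes), namely Tigit, Havcr2 and Icos. EO771 tumors, the highest in Pvr, held 6.96 to 8.58 CPM of Tigit, within the range of the other models. In CAFs only 3 of the 12 passed the filter on low values, Tigit, Tnfrsf18 and Lag3.

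Interferon-gamma response genes showed the same ends as Cd274 among tumors. In MC38 tumors 12 of 16 passed (51.4% of all genes), 11 of them higher (27% of all genes, median log2 1.34). In EO771 tumors 13 of 16 passed (54.2%), 12 of them lower (27%, median log2 -1.06). Cxcl10, a chemokine induced by interferon, stood at 502 to 672 CPM in MC38 and at 10.6 to 103 CPM elsewhere (log2 3.82, adjusted p = 6.07e-06), and Irf1 at 52.1 to 60.4 CPM in EO771 against 99.99 to 466 CPM elsewhere (log2 -2.09). In CAFs, 7 of 15 were higher (28.6% of all genes) and 5 lower (31.3%) in MC38, and 7 higher (27.1%) and 2 lower (26.5%) in Pan02. Psmb9 of the immunoproteasome stood at 123 to 158 RPKM in MC38 (log2 2.77) and Gbp2 at 95.3 to 171 RPKM in Pan02 (log2 2.90). In LL2 CAFs 9 of 15 were lower (18.3%) and 2 higher (14.7%), with a median log2 of -0.80. EO771 CAFs, the lowest in Cd274, had 5 of 15 lower (27.9%) and 1 higher (24.5%), with a median of -0.46.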

How the data were processed

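The tumor values are estimated counts per transcript as the authors deposited them, in steps of 0.5 and not normalized. The CAF values were RPKM computed by the authors. Per the labels and the study's methods, poly(A) RNA was sequenced, reads were aligned to mm10 with STAR 2.5.0c and counted over exons on both strands with HOMER. Columns of 5 samples outside these models were not used.

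Tumor counts were rounded up and tested with edgeR 4.0.16 (quasi-likelihood, TMM scaling, 15732 genes, all 15 tumors in 1 fit), and CAF values with limma 3.58.1 on log2(RPKM + 1) over the 13598 genes reaching 1 RPKM in 2 or more of the 8 libraries, using R 4.3.3. Each model was set against the mean of the others, and pairs of models were compared. P-values were adjusted by Benjamini-Hochberg over all genes of a contrast, and a gene was called at an adjusted p under 0.05. Between 95.9% and 99.8% of low CAF values were whole multiples of a step, within 0.1 of a step. A step was taken as 0.5 read, which gave read numbers for an edgeR alternative. Intervals of counting error were not used, and a floor of 3 steps is given for CAF values of 0. Both fits were tested on simulated data.

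The 10 genes, and the lists of receptors, other ligands, interferon-gamma response genes and cell markers, were chosen with earlier results of these data known. Named genes outside the 10 were the up to 3 called genes of a list with the largest log2 differences in a contrast, and for likeness the 2 genes nearest each member in tumors. Individual cell type markers other than Ptprc (Fap, Col1a1, Krt8, Tyrobp, Csf1r) fall outside this rule and were chosen with their values seen. A nearest gene of Lgals9 is not reported here. DESeq2 1.42.0, other scalings, filters, pseudocounts and transcripts, a replicate block and leaving out each library were the alternatives.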

Additional observations from a re-analysis of the deposited data

How the results depend on the processing

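No called difference of a member from the other models changed direction under an alternative. Counts here include Tnfsf18 in tumors and Cd80 and Tnfsf18 in CAFs, which owe the filter to 1 model. Of the 25 tumor calls of a member in 1 model against the others, 25 were kept with DESeq2, without the filter on low counts, with counts rounded down, with the longest transcript and with the replicate block, and 24 with total-count scaling. Of the 14 CAF calls, 14 were kept with a pseudocount of 0.1 RPKM, with median-of-ratios scaling and with the replicate block, 13 with edgeR on recovered counts (not Pvr in Pan02) and 11 without the filter on low values (not Cd274 in EO771 and Pan02 or Pvr in Pan02). With the longest transcript 12 CAF calls were kept. Only 7 members passed the filter there, of which 5 differed among CAF models. The number of members called in LL2 CAFs was 0 and became 1 without that filter and 1 without both Pan02 CAF libraries, an alternative chosen after seeing the data. The highest model by CPM was also highest relative to Ptprc for 8 members, and relative to the mean of myeloid and dendritic markers for 4. Leaving out 1 library at a time gave 8 to 10 members differing among tumor models, 5 to 7 called in B16, 2 to 6 in EO771, 2 to 5 in LL2, 2 to 5 in MC38 and 6 to 8 in Pan02 tumors, and 42 to 54 of the pair contrasts. In CAFs it gave 4 to 7 members differing, 3 to 7 called in EO771, 0 to 2 in LL2, 4 to 6 in MC38 and 2 to 4 in Pan02, and 14 to 28 of the pair contrasts. The cause of these changes was not tested.

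Samples were not treated as paired by replicate number. A correlation of deviations over 0.1 was seen in 9 of 30 same-numbered tumor pairs and 6 of 12 CAF pairs. In tumors, 5 of 15 correlated best with their own number. In CAFs 6 of 8 libraries did, with a median of 0.108 for same-numbered pairs and -0.108 for the others. With 2 libraries per model the deviations mirror each other, so this cannot settle whether CAF libraries were paired. The study obtained CAF RNA of each model from separate rounds of sorting. With the replicate block, 9 members differed among tumor models and 6 among CAF models, and 47 and 22 pair contrasts passed, against 47 and 23 without it, and Vsir in EO771 tumors passed (adjusted p = 0.0279 with edgeR). The number of CAF means below the tumor mean, 36 of 40, was 32 on the TPM scale. TMM against total-count scaling moved the median of all genes by -0.14 in MC38 and by 0.11 in Pan02 tumors (log2), and no call of a member changed with it other than that of Cd86 in Pan02 and of Tnfrsf14 in EO771, which passed at 0.0498 with edgeR on total-count scaling. Depth limits Pdcd1lg2 and Cd86 in CAFs and Tnfsf18 in tumors other than Pan02, where a few reads make up each value.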

Other observations

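Among 18 other checkpoint ligands, 16 were tested in tumors, and 10 were lower and 2 higher in B16 (63.5% of all genes called there). Cd40, a receptor of antigen-presenting cells, stood at 54.3 to 58.1 CPM in EO771 tumors against 4.22 to 22.7 CPM in the others (log2 2.33 ± 0.33 SE). In EO771 CAFs Cd40 was at 19.6 to 20.1 RPKM against 0.058 to 4.37 RPKM in the other CAFs. Tnfsf9, the 4-1BB ligand, was low in EO771 tumors, at 1.91 to 3.23 CPM against 10.99 to 45.3 CPM. Cd24a, a ligand of Siglec receptors, was high in Pan02, at 91.95 to 147 CPM in tumors against 1.10 to 9.28 CPM in the others and at 58.2 to 66.9 RPKM in CAFs against 0.06 to 1.49 RPKM. Epithelial markers were also higher in Pan02 tumors (7 of 7) and Pan02 CAFs (6 of 7), and their part in Cd24a was not tested. In CAFs 12 of the 18 were tested, with 6 higher and 2 lower in EO771 (24.5% and 27.9% of all genes), 1 higher and 8 lower in LL2 (14.7% and 18.3%), 4 higher and 2 lower in MC38 (28.6% and 31.3%), and 3 higher and 5 lower in Pan02 (27.1% and 26.5%).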
